A study of Mus musculus with 47 samples.

Results

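The transcriptome of bone marrow-derived macrophages (BMDMs) treated with IL-4 was compared between Zmynd8 cKO and WT mice, in 2 of the 47 samples of the series. The members of the comparison were all 51912 genes that the deposited table for these 2 libraries lists under a mouse Ensembl gene identifier, and 13245 of them, those with a mean of at least 10 counts over the 2 libraries, could be tested. The study asked how Zmynd8, a chromatin regulator, acts on gene expression when macrophages are polarized, and it sequenced mRNA of BMDMs without treatment (NT), after LPS and after IL-4. WT mice were C57BL/6 littermates with both Zmynd8 alleles floxed and no Cre, and cKO mice carried the same floxed alleles and 1 copy of Cre expressed from the Lyz2 locus, which is active in macrophages and other myeloid cells. Bone marrow cells of both genotypes were grown into macrophages with 20 ng/ml M-CSF, and IL-4 was given at 20 ng/ml for 6 h. The LPS libraries used for comparison are of cells given 100 ng/ml LPS for 6 h, and the NT libraries of untreated cells. For sequencing, 3 biological replicates of a genotype were combined. There is thus 1 library for each genotype and treatment, and no difference described after IL-4 has a replicate check.

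IL-4 is a cytokine of type 2 immunity that binds a receptor on macrophages, and the kinases JAK1 and JAK3 then activate the transcription factor STAT6. STAT6 induces a programme known as alternative activation, with lectins, chitinase-like proteins and lipid-handling enzymes, and it is set against the programme that bacterial products and interferons induce through NF-κB and interferon regulatory factors. ZMYND8 reads acetylated and methylated histone tails, and is known as a partner of histone demethylases and of the NuRD complex at enhancers and promoters.

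Estimated counts summed to 28386612 (WT) and 26128553 (labelled cKO), over 17695 and 17690 genes with counts. Below, counts are given for the WT library first and for the library labelled cKO second, and "higher" and "lower" refer to the library labelled cKO. Values in parentheses after counts are log2 fold changes, computed on CPM (counts scaled by the library total) plus 1. Each gene's counts were compared by an exact binomial test, two-sided, which is a comparison of 2 libraries and not of the conditions. Genes were called where they differed 1.2-fold or more and the p, adjusted by Benjamini-Hochberg over the 13245 genes, was below 0.05. Of all genes tested 13.8% were called higher and 10.5% lower, with a median of 0.01. These values are the background for every count after IL-4. For counts in NT the background is 21.7% higher and 25.9% lower, and for counts after LPS 17.1% and 8.76%. After IL-4, 125 genes were called higher and 35 lower in edgeR's exact test with the variation between libraries assumed (a coefficient of 0.2). Of 40 lists with a call, 17 had none in that test. A fit of genotype over the 6 libraries of all 3 treatments, with treatment as a block, was added after seeing the data. It measures a difference common to the treatments, and with edgeR's quasi-likelihood test 0 of 13074 genes were called higher and 0 lower, while 408 (3.12%) had an unadjusted p under 0.05. Limits on a fold change are 95% Clopper-Pearson limits and cover counting error only, not variation between replicates. PCR reads are also not independent molecules, so the limits may be too narrow. In these mixed cells, fewer cells that express a gene and less RNA per cell cannot be told apart.

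Zmynd8, the targeted gene (ENSMUSG00000039671, chr2:165784152-165899016, minus strand, mm10), had 3636 and 3944 counts (0.24 on the log2 scale, limits 0.17 to 0.30) and was not called. Its level thus went against the label. Floxed exons are not resolved in a count over the whole gene, and every direction below follows the label of the library. In NT Zmynd8 had 2284 and 1842 counts (-0.10) and after LPS 1967 and 2033 counts (0.13), not called in either. At the Cre locus, Lyz2, which encodes lysozyme, fell from 253808 to 137038 counts (-0.77), and its neighbour Lyz1 rose from 62 to 3903 counts (5.56). Lyz1 and Lyz2 are near-identical copies whose reads may be shared, so both values are uncertain. In the library labelled cKO of the other pairs too, Lyz2 was called lower, in NT (-0.60) and after LPS (-1.25), and Lyz1 higher (3.64 and 3.18). Within 1 Mb of Zmynd8, 25 other genes were tested, of which 4 were called higher and 6 lower (median -0.09), and within 1 Mb of Lyz2 14 were tested, of which Lyz1 was called higher and 1 gene lower (median 0.12).

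Few partners of Zmynd8 were called, and neither share exceeded that of all genes tested. Of 21 tested genes of the NuRD complex, the KDM5 and LSD1 demethylases and other known partners (Zmynd8 included), 1 (4.76%) was called higher and 2 (9.52%) lower, against 13.8% and 10.5% of all genes tested. Hdac2, a histone deacetylase, rose from 978 to 1139 counts (0.33), whereas Gatad2b, a NuRD subunit, fell from 2388 to 1710 counts (-0.36) and Kdm5a, a demethylase of histone H3, fell from 2027 to 1535 counts (-0.28). Spi1, the myeloid transcription factor PU.1 and the most abundant of the list per length, had 19278 and 17318 counts (-0.04). The median of the list was 0.00, and in the edgeR test 0 were called higher and 0 lower.

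The labels of cell type and treatment were checked against their markers. All 8 macrophage markers had counts in both libraries, and the most abundant per length was Lyz2. Csf1r, the M-CSF receptor, fell from 133483 to 100505 counts (-0.29), Adgre1, an adhesion receptor typical of mouse macrophages, rose from 70288 to 78727 counts (0.28), and Cd68, a glycoprotein of their lysosomes, had 37094 and 35858 counts (0.07). Of the macrophage markers 2 were called higher and 3 lower (0 and 0 in the edgeR test), with a median of 0.02. Chil3, a chitinase-like protein, was at 296 and 399 CPM after IL-4 and 0.687 and 0.398 CPM in the NT libraries, whose table was made separately, and Retnla, a secreted protein of the same programme, had 0 and 0 counts in NT. Side by side, Chil3 was thus far above its NT level in both libraries treated with IL-4.

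Between the 2 libraries, 3208 of the 13245 tested genes (24.2%) were called, 1822 of them higher (13.8%) and 1386 lower (10.5%). Most differences were small. Over all genes tested the median log2 fold change was 0.01, the 5th and 95th percentiles were -0.46 and 0.60, and 9180 genes (69.3%) differed by less than 1.2-fold. At a fold change of at least 2, 261 genes (1.97%) were called, 207 higher (1.56%) and 54 lower (0.408%), so that the large differences lay mostly on the higher side. Called genes that were higher had a median of 0.52 and those that were lower a median of -0.45. The called share was 24.3% of 11740 protein-coding genes, 28.5% of 358 pseudogenes and 22.6% of 1119 other RNA genes.

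**Figure D1:**
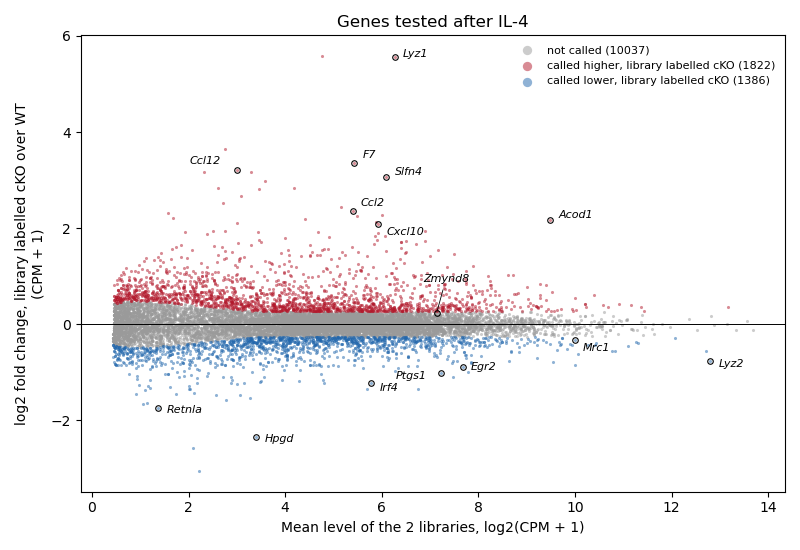
Each point is 1 of 13245 genes tested after IL-4, with the mean level of the 2 libraries on the horizontal axis (log2 of CPM plus 1) and the log2 fold change of the library labelled cKO over WT on the vertical axis. Red points were called higher (1822), blue points lower (1386) and grey points were not called, and the farthest points lie on the higher side, with the labelled genes running from Lyz1 at 5.56 to Hpgd at -2.34.

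Chemokines, the secreted proteins that attract leukocytes, gave the largest differences among the ligands. Of 25 chemokine genes tested, 15 (60%) were called higher (9 in the edgeR test with assumed variation) and 0 lower, against 13.8% and 10.5% of all genes tested, and the median log2 fold change was 0.78 against 0.01. With a mean of 100 counts as the minimum that median was 1.31. A fold change of at least 2 was reached by 12 of the 15. Ccl2, the main attractant of monocytes, rose from 363 to 1810 counts (2.35, limits 2.20 to 2.51). Its close relatives Ccl7 and Ccl12 bind the same receptor, and Ccl7 rose from 588 to 2463 counts (2.13) while Ccl12 rose from 16 to 353 counts (3.21). These 3 genes lie in 1 cluster on chromosome 11 and are similar in sequence. Cxcl3 and Cxcl1, which attract neutrophils through CXCR2, rose from 597 to 2773 counts (2.28) and from 39 to 210 counts (1.93). For Cxcl10, an interferon-induced attractant of T cells, the rise was from 630 to 2556 counts (2.09).

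Ccl3 and Ccl5, inflammatory chemokines of the CC family, rose from 1084 to 3331 counts (1.71) and from 1176 to 3628 counts (1.72). Ccl17 and Ccl22, attractants of type 2 helper cells that IL-4 induces in macrophages, rose from 189 to 456 counts (1.27) and from 2805 to 5256 counts (1.02). Other abundant members differed less or were not called. Pf4, the most abundant chemokine gene per length (1683 and 2821 TPM), rose from 10735 to 16969 counts (0.78), whereas Cxcl16, a membrane-bound chemokine, had 29990 and 27828 counts (0.01) and Ccl9 25817 and 25350 counts (0.09), and neither was called. Summed over the list, chemokine genes took 4356 TPM (WT) and 7533 TPM (labelled cKO). Of the 34 genes on the list, 7 were at 0 counts in both libraries, among them Ccl11, Ccl20 and Cxcl13.

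Cytokine and growth factor genes followed the same direction less uniformly. Of 39 tested, 18 (46.2%) were called higher (7 in that edgeR test) and 3 (7.69%) lower, with a median of 0.27. Tnf, a central inflammatory cytokine, rose from 1099 to 3361 counts (1.71, limits 1.61 to 1.80). Il1a and Il1b, the 2 agonists of the IL-1 receptor, went from 103 to 289 counts (1.38) and from 374 to 1066 counts (1.56). Their antagonist Il1rn, which IL-4 is known to induce, was also higher, from 3214 to 5273 counts (0.83). Csf1, which encodes the growth factor M-CSF, rose from 319 to 883 counts (1.51). Counts were low for Il6 (6 and 56 counts, 1.38), Il12b (5 and 46 counts, 1.23) and Il27 (17 and 97 counts, 1.56), cytokines of macrophages and dendritic cells that were called higher as well. The ligand Tnfsf9, which stimulates T cells, rose from 37 to 100 counts (1.07).

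Several anti-inflammatory and trophic cytokines were not called. Il10 had 41 and 36 counts (-0.04), Tgfb1 9815 and 7787 counts (-0.21) and Igf1 43053 and 38788 counts (-0.03). The 3 members called lower were Tgfb3, from 34 to 11 counts (-0.63), Hgf, from 651 to 408 counts (-0.53), and Vegfc, from 148 to 99 counts (-0.38), all of them growth factors. Grn, the progranulin gene and the most abundant member per length, had 81228 and 71506 counts (-0.06). The interferon genes Ifnb1 and Ifng each had 0 and 1 counts, so a difference in these interferon transcripts was not detectable at this depth.

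Receptors that guide migration were called on both sides, more of them higher than lower. Among 20 tested receptors for chemokines, formyl peptides, complement fragments and other ligands, 10 (50%) were called higher and 4 (20%) lower, with a median of 0.49. That median moved with the genes tested and the scale, to 0.29 with no count minimum, 0.08 at a mean of 100 counts, 0.23 on deposited TPM and 0.93 with a pseudocount of 0.1. Ccr2, the receptor of Ccl2 and a marker of recruited monocytes, rose from 1841 to 4215 counts (1.30), and Ccr1 from 709 to 1387 counts (1.06). Fpr1 and Fpr2, which sense formylated bacterial peptides, rose from 58 to 315 counts (2.10) and by 1.70 on the log2 scale (limits 1.45 to 1.95). C5ar2, a second receptor of the complement fragment C5a, rose from 282 to 734 counts (1.41), and Ccr3 from 319 to 847 counts (1.45). Members called lower included Cx3cr1, the fractalkine receptor, from 6157 to 3969 counts (-0.51), Cxcr4, from 9678 to 6579 counts (-0.44), and P2ry6, from 17840 to 13616 counts (-0.27). The most abundant member per length, the C3a receptor gene C3ar1, had 51724 and 48263 counts (0.02). Fpr3 was called on 4 and 33 counts (0.99), and the deposited TPM put it at -0.10.

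Among cytokine receptors more genes were called lower than higher. Of 39 tested, 5 (12.8%) were called higher and 10 (25.6%) lower (0 and 0 in the edgeR test), with a median of -0.05. Csf2rb and Csf2rb2, which encode signalling chains for GM-CSF, IL-3 and IL-5, fell from 36590 to 21916 counts (-0.62) and from 30303 to 19564 counts (-0.51). These 2 genes are near-identical copies, so their separate values are uncertain. Il6st, the chain that receptors of the IL-6 family share, fell from 7026 to 4342 counts (-0.57), and Lifr, its partner for LIF, from 268 to 162 counts (-0.54). Il27ra was lower as well, from 383 to 223 counts (-0.60). For IL-4 itself, the receptor chain Il4ra had 3595 and 3384 counts (0.03) and was not called, the shared chain Il2rg rose from 5182 to 6528 counts (0.45), and Il13ra1, the second chain of the type II receptor, rose from 300 to 435 counts (0.61). Receptor chains for interferons stayed under 1.2-fold, with Ifnar1 at 11577 and 10770 counts (0.02) and Ifngr1 at 5393 and 4707 counts (-0.08).

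In the signalling layer, the kinases of the IL-4 pathway were not called, and its transcription factor lay at the 1.2-fold limit. Jak1 had 6486 and 6173 counts (0.05), Jak3 810 and 858 counts (0.20) and Stat6 6834 and 5252 counts (-0.26). Stat6 was not called with library totals but was called lower under each of the 3 other scalings (-0.27, -0.27 and -0.28). Across interferon regulatory factors, STATs and SOCS feedback inhibitors, 4 (16.7%) of 24 tested genes were called higher and 3 (12.5%) lower, with a median of 0.01. The number called lower was 4 with TMM factors, 5 without the 20 most abundant genes in the totals and 6 (25%) with the median ratio, against 10.9%, 11% and 11.4% of all genes tested. Irf4, an interferon regulatory factor that IL-4 induces and that drives alternative activation, fell from 2152 to 834 counts (-1.22, limits -1.34 to -1.11), and Socs2, a target of STAT5 and STAT6, from 745 to 285 counts (-1.19). With library totals Bcl6, a repressor of inflammatory genes, was the third called lower and fell from 3499 to 2549 counts (-0.33). The share called higher was near the 13.8% of all genes tested. Among the 4 called higher, Stat2 rose from 4867 to 6751 counts (0.59), Socs1 from 1505 to 1991 counts (0.52) and Socs3, a feedback inhibitor of IL-6 signalling, from 742 to 2239 counts (1.68). Irf7, the most abundant of the list per length, had 12767 and 10666 counts (-0.14) and was not called.

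Genes of the NF-κB pathway that were called were all higher. Of 32 tested genes of the pathway, 13 (40.6%) were called higher (1 in the edgeR test) and 0 lower, with a median of 0.18. Nfkbiz, an inducible cofactor of NF-κB, rose from 378 to 985 counts (1.43), and Traf1, an adaptor of TNF receptors, from 1225 to 2758 counts (1.27). The inhibitors Tnfaip3, which encodes A20, and Nfkbia, which encodes IκBα, rose from 3270 to 5114 counts (0.76) and from 5612 to 8346 counts (0.69). Ikbke, an inducible kinase, rose from 7011 to 10370 counts (0.68), and the precursor of the p52 subunit, Nfkb2, from 5662 to 7011 counts (0.43). The DNA-binding subunit Rela, which encodes p65, had 2851 and 2666 counts (0.02) and Nfkb1, which encodes the precursor of p50 and is the most abundant of the list per length, 16556 and 15372 counts (0.01), and neither was called.

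Receptors of the innate immune system and their adaptors were mixed, with 8 of 24 called higher and 4 lower (0 and 0 in the edgeR test). Their median was 0.11 (0.03 with no count minimum and 0.04 at a mean of 100 counts). Cd14, the coreceptor of LPS, rose from 5527 to 10240 counts (1.01), and Tlr2, which senses bacterial lipoproteins, from 6295 to 10262 counts (0.82). Nod2 and Nod1, sensors of bacterial cell wall peptides, went from 142 to 281 counts (0.97) and from 389 to 538 counts (0.55). By contrast, the LPS receptor Tlr4 fell from 3882 to 2599 counts (-0.46) and the RNA sensor Tlr8 from 23127 to 16064 counts (-0.41). Unc93b1, the chaperone of the endosomal receptors and the most abundant of the list per length, had 25477 and 21759 counts (-0.11). Coreceptor and receptor of LPS thus changed in opposite directions.

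Among the target genes, interferon-response genes were nearly all higher. Of 61 interferon-response genes, all tested, 53 (86.9%) were called higher (8 in the edgeR test) and 1 lower, against 13.8% and 10.5% of all genes tested, with a median of 0.79. Antiviral effectors were among them. Ifit1, which binds foreign RNA, rose from 1542 to 4779 counts (1.73, limits 1.65 to 1.82), and Ifit3 from 2697 to 6910 counts (1.47). Rsad2, the enzyme viperin, and Cmpk2, the kinase gene beside it, went from 2053 to 5596 counts (1.55) and from 1311 to 3417 counts (1.48). Oasl1, a relative of the oligoadenylate synthetases, rose from 1383 to 4108 counts (1.67), and Mx1, a dynamin-like antiviral GTPase, from 969 to 2626 counts (1.53). Slfn4, a myeloid member of the schlafen family, stood farthest out, from 388 to 3156 counts (3.05, limits 2.91 to 3.20). Only Ifi27l2a was called lower, from 6113 to 3728 counts (-0.59), and the most abundant member per length, Bst2, which tethers virus particles to the cell surface, had 13622 and 13707 counts (0.13).

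The interferon-inducible GTPases, which attack the membranes around intracellular microbes, followed them. Of 17 tested, 14 (82.4%) were called higher (2 in the edgeR test) and 0 lower, with a median of 0.90, and 7 reached 2-fold. Gbp5 rose from 687 to 2330 counts (1.84) and Gbp2 from 1939 to 4830 counts (1.42), both guanylate-binding proteins, and Igtp, an immunity-related GTPase, from 792 to 1507 counts (1.02). Other guanylate-binding proteins were higher as well, with Gbp7 from 328 to 845 counts (1.41), Gbp6 from 730 to 1638 counts (1.25) and Gbp3 from 941 to 2011 counts (1.19). Gvin1, the most abundant per length, had 7608 and 8362 counts (0.26) and was not called. The Gbp, Ifi, Oas, Slfn and Tgtp families hold near-identical copies, so how reads were divided among their members is uncertain. The interferon-response genes added up to 8879 TPM (WT) and 10658 TPM (labelled cKO).

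Antigen presentation genes called in class I were higher, and those in class II were on both sides. For class I, which shows peptides of the cell's own proteins and responds to interferon, 9 (39.1%) of 23 tested genes were called higher (0 in the edgeR test) and 0 lower, with a median of 0.16. Tap1 and Tap2, the peptide transporter, rose from 5676 to 6930 counts (0.41) and from 3171 to 3917 counts (0.42), Psmb8, a subunit of the immunoproteasome, from 5529 to 6224 counts (0.29), and Nlrc5, the activator of class I genes, from 1582 to 1865 counts (0.35). The light chain B2m, the most abundant member per length, had 115456 and 102197 counts (-0.06). The nonclassical class I gene H2-T24 rose from 1018 to 1627 counts (0.78). Class II shows peptides of ingested material to helper T cells. Of 18 genes of class II and its costimulators, 5 were called higher and 8 (44.4%) lower (0 and 0 in the edgeR test), with a median of -0.16. The class II chains tested were called lower with the exception of H2-Ob, which was called higher on 5 and 23 counts (0.68), and of H2-DMb1 (-0.06) and H2-Oa (-0.10), which were not called, and the most abundant member per length, the protease gene Ctss, had 91034 and 78028 counts (-0.10). Cd74, the invariant chain, fell from 26840 to 14309 counts (-0.79), H2-Aa from 2464 to 1388 counts (-0.70), H2-Ab1 from 3228 to 1873 counts (-0.66), and their activator Ciita from 640 to 384 counts (-0.59). The costimulators Cd40 and Icosl rose from 6181 to 9959 counts (0.80) and from 769 to 1559 counts (1.11).

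Alternative activation, the programme that IL-4 induces, had more genes called lower than higher. Of 51 tested genes on this list, 18 (35.3%) were called lower and 9 (17.6%) higher (2 and 0 in the edgeR test), against 10.5% and 13.8% of all genes tested, and 24 were not called, with a median of -0.06 (-0.10 at a mean of 100 counts and -0.11 on deposited TPM). Hpgd, which degrades prostaglandin E2 and is induced by IL-4, fell from 473 to 65 counts (-2.34, limits -2.62 to -2.05), the largest fall of a protein-coding gene averaging 100 counts or more. Retnla fell from 85 to 5 counts (-1.75, limits -1.95 to -1.40), and Matk, a kinase that restrains Src kinases, from 2074 to 734 counts (-1.35). Egr2, a transcription factor induced by STAT6, fell from 7515 to 3716 counts (-0.89), and Pparg, the lipid-sensing nuclear receptor of alternatively activated macrophages, from 1687 to 917 counts (-0.74). Klf4, a cofactor of STAT6, fell from 842 to 440 counts (-0.78), and Pdcd1lg2, which encodes the checkpoint ligand PD-L2, from 2241 to 1520 counts (-0.43).

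Abundant markers of the programme were called in either direction. Mrc1, the mannose receptor, fell from 32115 to 23617 counts (-0.32, limits -0.35 to -0.30), and Clec7a, the β-glucan receptor Dectin-1 and the most abundant of the list per length, from 58962 to 36692 counts (-0.56). By contrast, Chil3 rose from 8404 to 10433 counts (0.43). Of the 6 genes most used as markers of the IL-4 response, 1 was called higher and 2 lower, with a median of -0.01, and all 6 are also on the longer list. Ccl24, another marker, had 16 and 14 counts and Mgl2, a lectin, 98 and 90 counts, and neither was called. The longer list also holds Ccl17 (1.27) and Ccl22 (1.02), its 2 members that were at least 2-fold higher. Called falls of Hpgd, Retnla and Egr2 thus stood beside called rises of Ccl17, Ccl22 and Chil3.

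**Figure D2:**
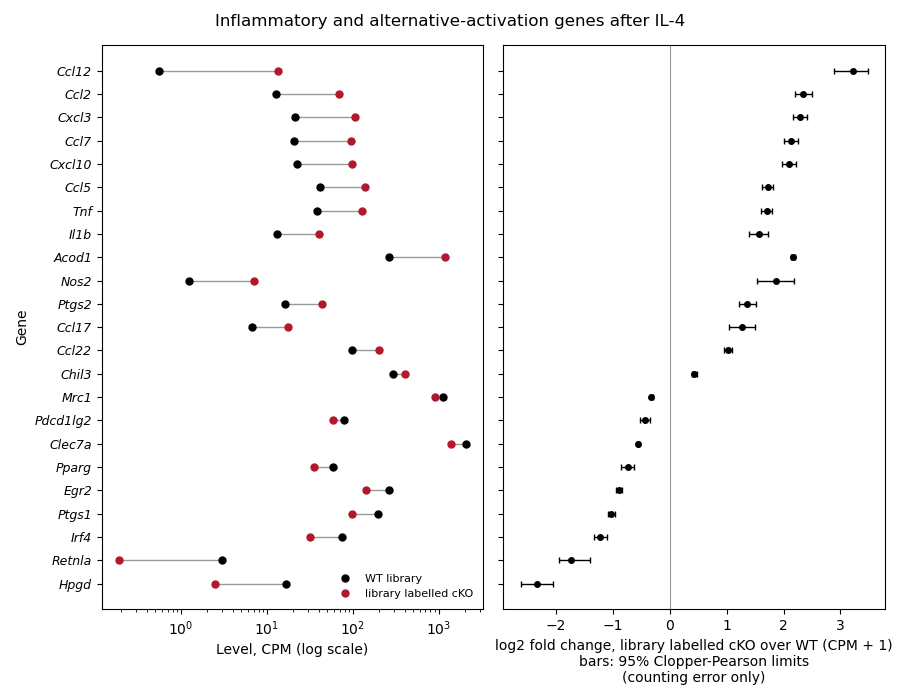
The left panel gives the level in CPM on a log axis for 23 genes in the WT library (black) and the library labelled cKO (red) after IL-4, and the right panel their log2 fold changes with 95% Clopper-Pearson limits, which cover counting error only. Inflammatory genes from Ccl12 to Ptgs2 lie to the right of 0, as do Ccl17, Ccl22 and Chil3, and genes from Mrc1 down to Hpgd lie to the left of 0.

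Genes of eicosanoids, the lipid mediators made from arachidonic acid, changed in both directions, with 8 of 26 called higher, 5 lower and a median of 0.01. Pla2g4a, the phospholipase that frees arachidonic acid, rose from 1697 to 2576 counts (0.71), the inducible cyclooxygenase gene Ptgs2 from 465 to 1140 counts (1.36), and Ptges, the synthase of prostaglandin E2, from 294 to 579 counts (1.03). Ptgs1, the constitutive cyclooxygenase, fell from 5637 to 2531 counts (-1.03), and the degrading enzyme Hpgd had the largest fall on the list. On the leukotriene branch, Alox5 rose from 22 to 44 counts (0.60), its activating protein Alox5ap, the most abundant of the list per length, had 6916 and 6455 counts (0.02), and Ltb4r1, a receptor of leukotriene B4, fell from 65 to 32 counts (-0.56). Cyp4f18, which breaks down leukotriene B4, rose from 698 to 2477 counts (1.90). Receptors of prostaglandin E2 were not called, with Ptger4 at 3060 and 3255 counts (0.21) and Ptger2 at 925 and 988 counts (0.21).

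Arginine metabolism is known to separate the inflammatory from the alternative state of macrophages. Of 16 tested genes of arginine, polyamines and itaconate, 6 (37.5%) were called higher and 1 lower, with a median of 0.11. Nos2, the inducible nitric oxide synthase, rose from 35 to 187 counts (1.87). Its level per length was low in both libraries, at 0.440 and 2.51 TPM. Acod1, which makes itaconate and is induced by bacterial products, rose from 7385 to 30470 counts (2.16, limits 2.12 to 2.20), reaching 679 TPM. Ass1 and Slc7a1, which regenerate and import arginine, differed by small folds, at 3749 and 4415 counts and 1256 and 1428 counts (0.35 and 0.30, both called higher). Srm and Odc1, enzymes of polyamine synthesis, rose from 403 to 579 counts (0.61) and from 2301 to 2581 counts (0.28). Gatm, the most abundant of the list per length, had 95577 and 76685 counts (-0.20).

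Other metabolic lists were called in both directions. Glycolytic and hypoxia-inducible genes had 9 of 30 called higher and 4 lower (0 and 0 in the edgeR test), with a median of 0.15. Hk3 and Hk2, 2 forms of hexokinase, changed in opposite directions, from 4278 to 5649 counts (0.52) and from 6829 to 4697 counts (-0.42), and the regulators Pfkfb3 and Pfkfb4 likewise, from 559 to 759 counts (0.54) and from 4480 to 3020 counts (-0.45). Gapdh, the most abundant of the list per length, had 46814 and 48487 counts (0.17). In sterol and fatty acid synthesis, 2 of 38 were called higher (0 under each of the 3 other scalings) and 6 (15.8%) lower. In the edgeR test 0 and 0 were called, and the median was -0.06. Fads1, a fatty acid desaturase, fell from 2526 to 1574 counts (-0.56) while Dhcr7, of cholesterol synthesis, fell from 755 to 494 counts (-0.47). Elovl1, the most abundant of that list per length, had 4468 and 4088 counts (-0.01). Genes of the oxidant response and of iron had 14 (50%) of 28 called higher (0 in the edgeR test) and 1 lower, with a median of 0.25. Slc7a11, the cystine importer, rose from 622 to 1175 counts (1.00), the iron importer Slc11a2 from 4147 to 6003 counts (0.65), and G6pdx, which supplies NADPH, fell from 6299 to 4469 counts (-0.37). Ferritin light chain, Ftl1, the most abundant of these per length, had 331259 and 320565 counts (0.07).

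Surface receptors of macrophages were called in both directions. Of 27 tested scavenger, lectin and Siglec receptors, 13 (48.1%) were called higher and 7 (25.9%) lower, with a median of 0.14. Clec4e, which encodes the mycobacterial glycolipid receptor Mincle, rose from 1318 to 3490 counts, and the inhibitory receptor Siglece from 802 to 2708 counts (1.84). Clec4a1, a C-type lectin of myeloid cells, rose from 4819 to 7060 counts (0.67). Msr1 and Marco, scavenger receptors, rose from 7271 to 10188 counts (0.60) and from 67 to 115 counts (0.68), and Cd5l, a secreted scavenger protein of tissue macrophages, from 788 to 1432 counts (0.96). Lgals3, the galectin-3 gene and the most abundant of the list per length, fell from 78668 to 56285 counts (-0.36). Stab2 was called higher on 16 and 46 counts (0.82), and the deposited TPM put it at -0.15. Among 31 Fc and paired receptors, 15 (48.4%) were called higher and 5 (16.1%) lower, with a median of 0.30.

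Pilra, an inhibitory paired receptor, rose from 213 to 624 counts (1.55), and Pira2, an activating one of a family with near-identical members, from 550 to 1413 counts (1.43). Cd300ld, which has close paralogs that may share its reads, fell from 6341 to 3322 counts (-0.81), and Cd300lb from 20765 to 11774 counts (-0.70). Fcer1g, a signalling chain of Fc receptors and the most abundant of the list per length, had 24617 and 22797 counts (0.01). For the uptake of dead cells and the handling of their lipids, 4 of 31 genes were called higher (2 with the median ratio) and 6 (19.4%) lower, with a median of -0.06. Lrp1, a large receptor of lipoproteins and dead cells, fell from 61658 to 38443 counts (-0.56), Mertk, a receptor kinase for dead cells, from 2500 to 1746 counts (-0.39), its ligand Pros1 from 819 to 489 counts (-0.60), and the cholesterol exporter Abcg1 from 9525 to 6250 counts (-0.49). Among CD300 genes of the list, Cd300a fell from 2224 to 1440 counts (-0.50) and Cd300lf rose from 1281 to 1537 counts (0.38). Apoc2, an apolipoprotein, was the exception in size, from 412 to 1915 counts (2.26), while Apoe, the most abundant of the list per length, had 387104 and 329612 counts (-0.11).

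Secreted proteins of plasma and matrix included F7 and Ctsk, which are among the 20 highest fold changes of genes averaging 100 counts or more. Coagulation genes had 10 (50%) of 20 called higher and 2 lower, with a median of 0.36. F7, the protease that starts clotting with tissue factor, rose from 190 to 2027 counts (3.35, limits 3.16 to 3.55), F13a1, which crosslinks fibrin and is a known marker of monocytes and IL-4-treated cells, from 1363 to 4899 counts (1.94), and F10 from 729 to 1262 counts (0.89). Plau, the urokinase gene and the most abundant of the list per length, rose from 3802 to 5182 counts (0.56). F9, a further clotting factor, rose from 49 to 127 counts (1.10), and Tfpi, the inhibitor of the tissue factor pathway, from 343 to 530 counts (0.70). For matrix and its proteases, 12 (42.9%) of 28 genes were called higher and 3 lower, with a median of 0.17. Ctsk, the collagen-degrading cathepsin, rose from 37 to 356 counts (2.67, limits 2.35 to 2.96), and the collagenases Mmp13 and Mmp14 from 3267 to 6214 counts (1.04) and from 7889 to 14770 counts (1.02). Thbs1, the thrombospondin-1 gene, rose from 452 to 665 counts (0.64). Spp1, which encodes osteopontin and is the most abundant of the list per length, rose from 28553 to 35273 counts (0.42). Complement had 6 of 20 genes called higher and 2 lower, with a median of 0.03, and C3, its central component, rose from 40877 to 48215 counts (0.36) while C1qb, the most abundant per length, had 69751 and 58713 counts (-0.13).

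Transcription factors of the myeloid lineage were called in both directions, 7 higher and 9 (32.1%) lower of 28. In the edgeR test 0 and 0 were called, and the median was -0.12. Cebpd and Batf, factors that inflammatory signals induce, rose from 193 to 460 counts (1.25) and from 104 to 260 counts (1.23), and Maf, a factor of mature macrophages, from 2389 to 4191 counts (0.92). Batf3, known from dendritic cells, fell from 1124 to 565 counts (-0.84). Immediate early genes and their like had 8 of 36 called higher and 10 (27.8%) lower, with a median of 0.01. Ier5l fell from 379 to 103 counts (-1.54) and Id3, an inhibitor of helix-loop-helix factors, from 2982 to 1443 counts (-0.92), whereas Nr4a3, an orphan nuclear receptor, rose from 40 to 93 counts (0.92). The AP-1 subunit Junb, the most abundant of that list per length, had 12909 and 11946 counts (0.01).

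Of 53 cell cycle genes 25 (47.2%) were called higher and 2 lower, and 0 and 0 in the edgeR test with assumed variation, with a median of 0.33. Among those called higher were the cyclin Ccna2, from 111 to 267 counts (1.19), Birc5, from 64 to 144 counts (1.00), the kinase Aurkb, from 90 to 172 counts (0.86), and Top2a, the topoisomerase of condensing chromosomes, from 441 to 707 counts (0.76). Pcna, the clamp of DNA polymerases, had 4530 and 4493 counts (0.11) and Mcm6, a subunit of the replicative helicase, 3664 and 3089 counts (-0.13), and neither was called. Cdkn1a, which encodes the cell cycle inhibitor p21 and was the most abundant of the list per length, had 18896 and 19756 counts (0.18).

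Few genes of housekeeping functions were called. Of 38 ribosomal protein genes 1 was called higher and 0 lower, with a median of 0.02, and of 37 genes of oxidative phosphorylation 1 was called higher and 0 lower, with a median of 0.01. Those 2 genes were Rpl5, from 481 to 663 counts (0.56), and Cycs, the cytochrome c gene, from 1650 to 1858 counts (0.29). The most abundant of these lists per length, Rplp1 and Atp5b, had 17968 and 16471 counts (-0.01) and 20487 and 19561 counts (0.05). None of 14 general housekeeping genes was called, and their median was -0.01. Lysosomal genes, on which phagocytes rely, had 4 of 40 called higher and 4 lower, with a median of -0.07. Ctsd, a major lysosomal protease and the most abundant of that list per length, fell from 226112 to 140663 counts (-0.57), and Tfeb, a regulator of lysosomal genes, from 2468 to 1538 counts (-0.55), while Acp5 rose from 1107 to 1736 counts (0.75).

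**Figure D3:**
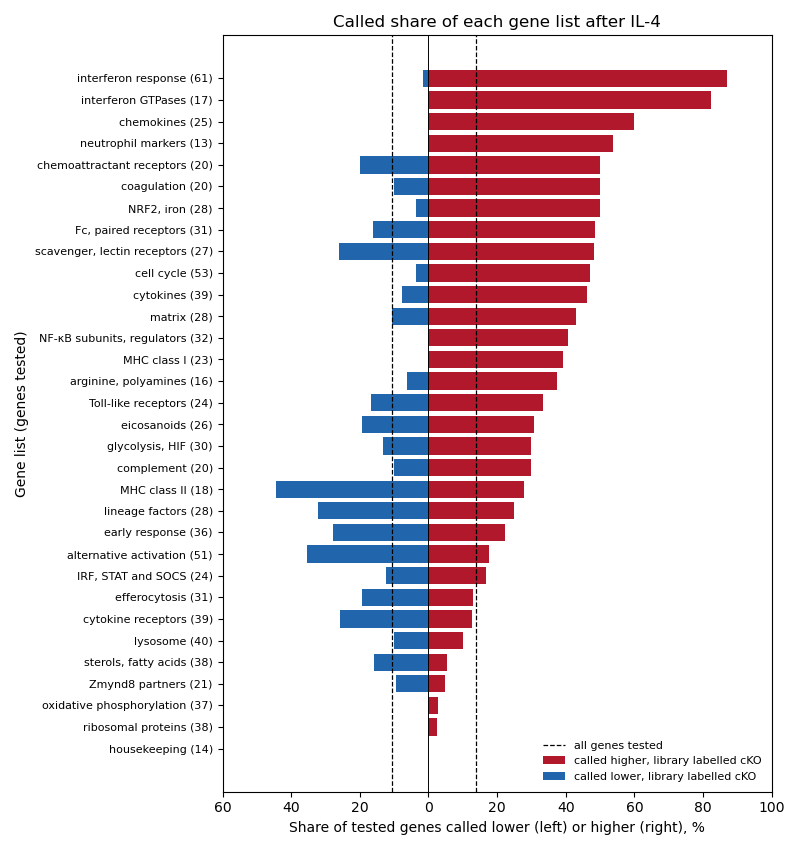
Bars give the share of tested genes called higher (red, to the right) or lower (blue, to the left) in the library labelled cKO after IL-4, in percent, for 32 of the 44 lists, with the number of genes tested after each name. Dashed lines mark 13.8% and 10.5% of all 13245 genes tested, and among the lists drawn interferon-response genes, interferon GTPases and chemokines reach farthest to the right, at 86.9%, 82.4% and 60%.

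Markers of other cells that a bone marrow culture could hold were examined as whole lists. Neutrophil genes were detected in both libraries and leaned higher. Calls were made for 7 of the 13 tested among 14 markers, all higher (0 in the edgeR test), the median was 0.30, and the list summed to 1383 TPM (WT) and 1953 TPM (labelled cKO). In the separately made NT table it summed to 77.7 and 75.6 TPM with 4 genes tested and none called, and after LPS 3 were tested, of which 1 was called higher and 2 lower. S100a9, a calcium-binding protein of neutrophils and monocytes and the most abundant marker per length, rose from 3451 to 4830 counts (0.60), S100a8 from 1332 to 1853 counts (0.59) and Elane, neutrophil elastase, from 142 to 219 counts (0.64). The surface marker Ly6g had 3 and 2 counts, Mpo, myeloperoxidase, 709 and 825 counts (0.33, called higher) and Ltf, lactoferrin, 2027 and 2095 counts (0.17, not called). Of the 14 markers 3 are also on other lists used here. The part of such cells in the higher Fpr1, Fpr2 and Lcn2 (851 and 1097 counts, 0.47) was not tested.

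B cell markers summed to 21.4 and 33.1 TPM, and of 8 the 2 that could be tested, Cd79b (310 and 441 counts, 0.58) and Ighm (107 and 179 counts, 0.72), were called higher, while the defining marker Pax5 had 0 and 0 counts. Of 11 T and NK cell markers only Cd4 could be tested (144 and 103 counts, -0.30, not called), Cd3d, Cd3g, Cd8b1 and Ncr1 were at 0 in both libraries, and the list summed to 3.62 and 2.97 TPM. Dendritic cell markers summed to 1306 and 1398 TPM, nearly all from Bst2, with 2 of 6 called higher and 0 lower (median 0.13), and Xcr1 rose from 15 to 32 counts (0.54) while the defining marker Flt3 had 25 and 24 counts. For mast cells, basophils and eosinophils, 2 of 3 tested markers were called higher and 1 lower (median 0.87), on a list that summed to 10.8 and 23.2 TPM and had Ccr3 as its most abundant gene. Prg2, the eosinophil major basic protein, rose from 27 to 67 counts (0.87) and Siglecf fell from 76 to 39 counts (-0.56), while the mast cell markers Tpsb2, Cma1 and Fcer1a were at 0. Erythroid and platelet markers had 0 called of 2 tested (median 0.20) and summed to 1.35 and 3.30 TPM, with Itga2b the most abundant (34 and 52 counts) and Hbb-bt at 0.

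Stromal and endothelial markers summed to 27.6 and 25.4 TPM, nearly all from Pecam1 (1576 and 1302 counts, -0.15), which macrophages express too, and Col3a1, Dcn and Pdgfra were at 0. Of 5 tested 1 was called higher and 0 lower (median 0.28), namely Kdr, a VEGF receptor, from 59 to 113 counts (0.79). Osteoclast genes, which macrophages share in part, had 3 of 9 called higher and 3 lower (median -0.11) and summed to 170.3 and 198 TPM, with Acp5 the most abundant. Their members lay on both sides, since Ctsk and Acp5 were higher and Ocstamp, needed for cell fusion, fell from 165 to 90 counts (-0.62), as did Nfatc1, from 1977 to 1255 counts (-0.53), while Calcr was at 0. Of these lists 4 dendritic, 1 mast cell, 2 stromal and 7 osteoclast genes are on other lists as well, and the part of such cells in the differences above was not tested. Xist, the transcript of the inactive X chromosome, had 31447 and 27605 counts (-0.07), and the Y-linked genes Ddx3y and Eif2s3y were at 0 in both libraries, so both libraries had the pattern of female cells. None of the 2 tested genes of that list was called (median 0.12).

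Beyond the lists, genes of several kinds were among the 20 highest and 20 lowest called fold changes where the counts of the libraries averaged 100 or more. The highest included Coro2b, an actin-binding coronin, from 50 to 479 counts (2.81), Prkar1b, a regulatory subunit of protein kinase A, from 289 to 1547 counts (2.43), and Ankrd66, from 27 to 433 counts (3.17). On the lower side were Enc1, from 4377 to 1560 counts (-1.35), Plekhf1, from 1085 to 411 counts (-1.23), Angptl4, an inhibitor of lipoprotein lipase, from 291 to 98 counts (-1.24), Phospho1, from 219 to 56 counts (-1.47), and Cytip, from 410 to 150 counts (-1.20). Others on the lower side were Ablim1, from 320 to 89 counts (-1.48), which encodes an actin-binding protein, Emp2, from 417 to 153 counts (-1.19), a membrane protein, and Cd300ld4, from 1046 to 417 counts (-1.16), a paralog of Cd300ld. The noncoding RNA Gm42031 rose from 98 to 801 counts (2.83). Several extreme values are uncertain as measurements. The mitochondrial gene mt-Co3 had 3 and 1357 counts, a ratio of 491 (limits 168 to 2386), whereas it had 2572 and 3643 counts in NT and 1227 and 1302 counts after LPS, so the WT library after IL-4 stood apart from the other libraries. Mitochondrial genes together took 1.67% of counts in both libraries. The pseudogene Eif4a-ps4 had 0 and 300 counts, at least 109-fold higher against a floor of 3 counts, and 2210418O10Rik 0 and 207 counts, at least 75-fold higher. For the pseudogene Gm10163, with 208 and 0 counts, the library labelled cKO was at least 63.8-fold lower. Reads of pseudogenes may belong to their parent genes, and those of antisense genes such as Bach2os (27 and 268 counts) to their partners, because whether the counting used strand is not given in the sources used here.

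The same contrast without treatment and after LPS rests on other libraries, each pair in a table of its own, and the difference between treatments was not tested. In NT 5934 of 12463 tested genes (47.6%) were called, 2701 higher (21.7%) and 3233 lower (25.9%), and after LPS 3204 of 12386 (25.9%), 2119 higher (17.1%) and 1085 lower (8.76%). With the median ratio in place of library totals, the LPS calls became 1678 higher and 1494 lower. Without the 20 most abundant genes in the totals, the NT calls became 2995 higher and 2989 lower. In the edgeR test with assumed variation, 81 genes were called higher and 192 lower in NT, and 22 and 15 after LPS. Of the 1822 genes higher after IL-4, 469 (25.7% of them and 17.4% of the 2701 in that contrast) were also higher in NT, and 446 (24.5% of them and 13.8% of the 3233 in that contrast) were lower there. After LPS, 381 (20.9% of them and 18% of the 2119 in that contrast) were higher as well and 138 (7.57% of them and 12.7% of the 1085 in that contrast) were lower. Of the 1386 genes lower after IL-4, 402 (29.0% of them and 12.4% of the 3233 in that contrast) were also lower in NT, and 190 (13.7% of them and 7.03% of the 2701 in that contrast) were higher there. After LPS, 170 (12.3% of them and 15.7% of the 1085 in that contrast) of these were lower and 162 (11.7% of them and 7.65% of the 2119 in that contrast) were higher. Of all genes tested after LPS, 8.76% were called lower and 17.1% higher. In all 3 contrasts, 90 genes were called higher, which is 4.94% of those higher after IL-4, 3.33% of those in NT and 4.25% of those after LPS, and 36 were called lower, 2.60%, 1.11% and 3.32% of those lower. Whether these numbers differ from those of unrelated lists was not tested.

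Among the genes called higher in all 3 contrasts were several with large folds after IL-4. F7 had 407 and 1803 counts in NT (2.29) and 1114 and 3663 counts after LPS (1.78), and Ctsk 542 and 2301 counts (2.25) and 767 and 1503 counts (1.03). Ccl2 and Ccl7 belong here as well, with log2 fold changes of 0.91 and 0.55 in NT and 0.34 and 0.53 after LPS, against 2.35 and 2.13 after IL-4. Apoc2 was at 1.67 in NT and 0.65 after LPS, Ccr2 at 1.11 and 1.34, and C5ar2 at 0.90 and 1.09. These genes were called higher in the library labelled cKO of each of the 3 pairs. In the fit blocked by treatment, F7 was at 2.54 (edgeR adjusted p = 0.555), Ctsk at 2.14 (0.764) and Ccl2 at 1.21 (0.999), none of which was called.

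Interferon-response genes had opposite directions without treatment and after IL-4. All 61 were called lower in NT, with a median of -1.48, against 53 called higher after IL-4, and after LPS 3 were called higher and 12 lower (median -0.07). For the interferon GTPases, 16 of 16 were called lower in NT (median -1.75), and after LPS 2 of 19 higher and 5 lower (median -0.11). Of all genes tested 25.9% were called lower in NT, and 17.1% higher and 8.76% lower after LPS. Summed levels of the interferon list were 13402 and 5174 TPM in NT and 8879 and 10658 TPM after IL-4, WT first. Ifit1 was at 194 and 43.2 CPM in NT and at 54.3 and 183 CPM after IL-4. The order of the libraries on this list thus differed between the 2 tables. Side by side, the summed level in WT was lower after IL-4 than in NT, and in the library labelled cKO it was higher.

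Chemokines were not one-sided in the other contrasts, with 8 of 22 called higher and 6 lower in NT (median -0.08) and 6 of 21 higher and 2 lower after LPS (median 0.20). Cxcl10 was called lower in NT (-1.45) and Acod1 too (-0.99). In NT 12 of 43 tested genes of alternative activation were called higher and 11 lower (median -0.13), and after LPS 13 of 44 and 9 (median 0.08). The shares over all genes tested were 21.7% higher and 25.9% lower in NT, and 17.1% and 8.76% after LPS. Hpgd and Irf4, at 0.649 and 0.708 CPM and 1.87 and 1.24 CPM in NT, were low there in both libraries and reached 16.7 and 2.49 CPM and 75.8 and 31.9 CPM after IL-4. Ribosomal protein genes, with 1 call after IL-4, had 37 of 38 called higher in NT (median 0.70), and genes of oxidative phosphorylation 28 of 37 (median 0.49). Cell cycle genes were called higher in NT in a similar number, 28 of 52, with 4 lower (median 0.35). After LPS 6 of 44 were called higher and 5 lower (median 0.00), against 17.1% and 8.76% of all genes tested.

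**Figure D4:**
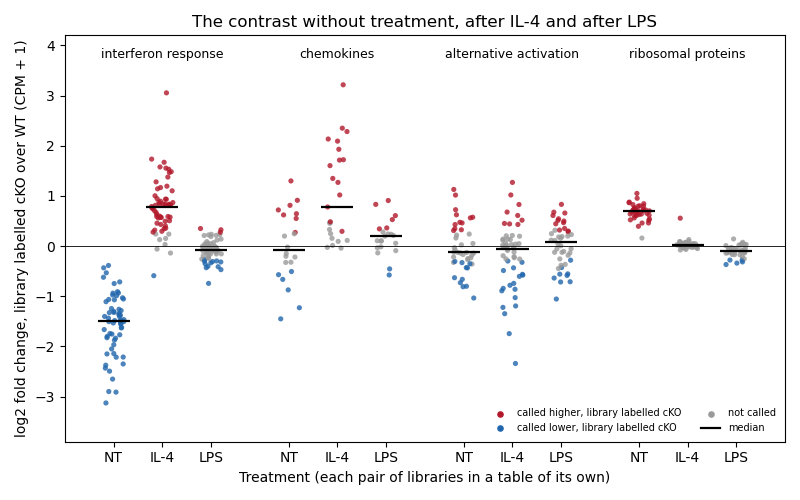
Each point is a gene of 1 of 4 lists, with its log2 fold change of the library labelled cKO over WT (CPM plus 1) in NT, after IL-4 and after LPS, and bars mark medians. Interferon-response genes lie below 0 in NT (median -1.48), above 0 after IL-4 (median 0.79) and near 0 after LPS (median -0.07).

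Promoters of these groups were described by their sequence. RefSeq promoters of 300 bases around gene starts (build GRCm38.p6) were searched on both strands for 3 motifs, TTC and GAA 4 bases apart (the type bound by STAT6), GAAA and GAAA 2 bases apart (the core of the interferon-stimulated response element) and GGG and TTTCC 2 bases apart (the type bound by NF-κB). A match is a description of the letters and not a site. Matches of the STAT6 type and the interferon core overlapped in 18 of the 95 promoters that held both, and the NF-κB type overlapped the interferon core in 3 of 22 and the STAT6 type in 2 of 46. Of all 32851 promoters, 6.95% held the STAT6 type, 3.44% the interferon core and 1.63% the NF-κB type, and of 12222 promoters of genes tested 5.51%, 3.43% and 1.80%. Among 176 promoters of genes at least 2-fold higher the shares were 9.09%, 15.3% and 5.68%, and among 35 of genes at least 2-fold lower 17.1%, 2.86% and 0%. The interferon core was in 44.1% of 59 promoters of interferon-response genes and 83.3% of 12 of the GTPases, the NF-κB type in 17.9% of 28 of chemokine genes and 26.3% of 38 of NF-κB genes, and the STAT6 type in 20.4% of 54 of the alternative activation list and 16.9% of those of interferon-response genes. Cytokine genes held them in 16%, 8% and 10% of 50 promoters.

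To show these letters, 4 promoters with the STAT6 type are given 5′ to 3′ with every match of the 3 motifs in capitals, 3 of genes that were lower and 1, Ccl17, of a gene that was higher. They are those of Retnla at chr16:48842359-48842658 on the plus strand, Pdcd1lg2 at chr19:29410669-29410968 on the plus strand, Clec7a at chr6:129472730-129473029 on the minus strand and Ccl17 at chr8:94810203-94810502 on the plus strand.
Retnla: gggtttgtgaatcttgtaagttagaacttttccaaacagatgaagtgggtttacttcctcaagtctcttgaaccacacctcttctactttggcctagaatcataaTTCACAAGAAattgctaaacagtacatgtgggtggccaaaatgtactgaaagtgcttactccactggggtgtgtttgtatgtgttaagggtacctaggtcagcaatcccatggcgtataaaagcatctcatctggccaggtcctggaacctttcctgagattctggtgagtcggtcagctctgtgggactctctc
Pdcd1lg2: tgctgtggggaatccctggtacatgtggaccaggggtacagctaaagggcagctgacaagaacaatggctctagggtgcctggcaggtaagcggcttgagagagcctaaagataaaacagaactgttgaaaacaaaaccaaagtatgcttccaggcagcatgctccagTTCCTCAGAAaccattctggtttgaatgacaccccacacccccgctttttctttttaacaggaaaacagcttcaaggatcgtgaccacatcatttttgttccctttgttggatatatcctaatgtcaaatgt
Clec7a: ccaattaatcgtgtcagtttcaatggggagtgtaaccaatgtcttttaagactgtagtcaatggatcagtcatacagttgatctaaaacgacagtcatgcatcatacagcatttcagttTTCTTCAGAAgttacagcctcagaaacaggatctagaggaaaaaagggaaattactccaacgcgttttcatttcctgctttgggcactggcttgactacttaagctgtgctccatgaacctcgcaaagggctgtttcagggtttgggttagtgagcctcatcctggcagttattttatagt
Ccl17: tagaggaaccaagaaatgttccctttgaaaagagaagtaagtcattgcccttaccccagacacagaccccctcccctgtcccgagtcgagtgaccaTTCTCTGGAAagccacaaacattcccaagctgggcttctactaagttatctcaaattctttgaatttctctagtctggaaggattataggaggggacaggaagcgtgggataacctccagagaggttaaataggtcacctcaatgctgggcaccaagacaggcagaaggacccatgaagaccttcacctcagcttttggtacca

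A further 4 belong to genes that rose after IL-4, 3 with the interferon core and 1, Cxcl3, with the NF-κB type. These are Ifit1 at chr19:34640639-34640938 on the plus strand, Gbp2 at chr3:142620413-142620712 on the plus strand, Cxcl10 at chr5:92348840-92349139 on the minus strand and Cxcl3 at chr5:90785851-90786150 on the plus strand.
Ifit1: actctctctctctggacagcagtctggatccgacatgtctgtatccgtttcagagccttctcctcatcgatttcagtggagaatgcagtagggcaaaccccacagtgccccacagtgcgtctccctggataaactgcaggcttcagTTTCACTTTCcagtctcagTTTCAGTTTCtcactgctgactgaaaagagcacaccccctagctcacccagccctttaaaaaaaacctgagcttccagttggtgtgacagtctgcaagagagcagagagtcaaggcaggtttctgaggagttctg
Gbp2: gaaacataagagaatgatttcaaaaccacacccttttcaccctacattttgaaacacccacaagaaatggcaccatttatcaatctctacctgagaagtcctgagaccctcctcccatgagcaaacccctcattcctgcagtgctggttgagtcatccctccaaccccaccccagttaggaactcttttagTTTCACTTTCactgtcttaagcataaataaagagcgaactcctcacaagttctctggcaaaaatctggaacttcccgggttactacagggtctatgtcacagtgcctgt
Cxcl10: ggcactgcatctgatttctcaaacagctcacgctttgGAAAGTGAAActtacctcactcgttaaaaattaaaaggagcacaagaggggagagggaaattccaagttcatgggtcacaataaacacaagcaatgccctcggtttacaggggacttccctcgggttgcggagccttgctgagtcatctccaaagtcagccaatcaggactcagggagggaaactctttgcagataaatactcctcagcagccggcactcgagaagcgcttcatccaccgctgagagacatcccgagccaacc
Cxcl3: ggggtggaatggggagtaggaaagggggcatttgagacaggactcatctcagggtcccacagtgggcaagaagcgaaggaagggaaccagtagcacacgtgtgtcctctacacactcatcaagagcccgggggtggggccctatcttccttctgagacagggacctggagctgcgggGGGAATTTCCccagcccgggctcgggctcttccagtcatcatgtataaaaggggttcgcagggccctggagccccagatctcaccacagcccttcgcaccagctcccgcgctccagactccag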

How the data were processed

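Polyadenylated RNA was sequenced and aligned to the mm10 transcriptome with TopHat by the authors, who deposited 1 table for each WT and cKO pair. The estimated counts in the deposited tables come from a tool not given in the sources used here, and TPM values, also deposited by the authors, are normalized for gene length and library size. The tables' names refer to DEGseq while the methods name Cuffdiff; their fold change and p columns were not used. Rows that name no gene (2 for IL-4, 431 for NT, 431 for LPS) were left out. Gene names turned into dates (27, 27 and 0) were restored by gene ID from the names of the LPS pair, which were intact. Coordinates and gene types were taken by gene ID from GENCODE vM21 (GRCm38).

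Counts were rounded and divided by library totals. The test was a two-sided exact binomial test against the ratio of totals, with Benjamini-Hochberg adjustment over genes averaging 10 counts or more. It was tested on simulated data with counting error only, which cannot show how the calls behave under variation between replicates. Of 1045 names on 44 lists, 1032 were found, and for 12 symbols on more than 1 tested row the row with the highest mean count was used. The members and lists were chosen with earlier results of these data known. Named are genes the study names for RNA of these macrophages under any treatment, the 20 highest and 20 lowest called fold changes at a mean of 100 counts, up to 8 called members and the most abundant member of each list, and the markers Ccl2, Hpgd and Mrc1. Members given as not called, and others outside this rule, such as Cx3cr1, Cxcr4, Il1rn, Hgf and Ifi27l2a, were chosen after their values were seen. A few genes of these lists and of the naming rule are not reported here.

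Alternatives were 3 other scalings (edgeR's TMM factors, DESeq2's median ratio, totals without the 20 most abundant genes), a pseudocount of 0.1, other count minimums, other fold rules, edgeR's exact test at a biological coefficient of variation set to 0.2, and deposited TPM. Chosen after seeing the data was edgeR's quasi-likelihood test of genotype over the 3 treatments with treatment as a block, on library totals. Python 3.11.15, numpy 2.4.6, pandas 2.3.3, scipy 1.17.1, matplotlib 3.10.9, R 4.3.3, edgeR 4.0.16 and DESeq2 1.42.0 were used.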

Additional observations from a re-analysis of the deposited data

Results flagged for a closer look

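Some groups and genes had opposite calls after IL-4 and in another treatment, and the difference between contrasts was not tested. Of the interferon-response genes, mostly called higher after IL-4, 61 were called lower in NT. Of the interferon GTPases, 16 were called lower in NT. Of the 3 neutrophil markers tested after LPS, 2 were called lower there, whereas 7 of 13 were called higher after IL-4.

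Among the genes with the highest fold changes after IL-4, Slfn4 had a log2 fold change of -1.49 in NT, Ccl12 -0.51, Acod1 -0.99 and the pseudogene AC151730.1 -2.87. After LPS the pseudogene Eif4a-ps4 was at -1.17 (31 and 0 counts) and Gm21887 at -1.14 (30 and 0 counts). With 0 counts in a library these values depend on the pseudocount. In NT both genes were called higher (1.47 and 0.81), as after IL-4. Among the genes with the lowest fold changes after IL-4, Emp2 was at 0.47 and Ier5l at 0.33 in NT. Gm27177 was at 0.94 and Gm10163 at 0.36 there. After LPS Enc1 was at 0.48 and the noncoding RNA Gm26778 at 1.57 (0 and 46 counts). Enc1 and Gm26778 were called lower in NT (-0.70 and -2.24), as after IL-4.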

How the results depend on the processing

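No paired analysis was possible within IL-4 because each group there has 1 library. With genotype fitted over the 3 treatments and treatment as a block, an alternative chosen after seeing the data, edgeR's quasi-likelihood test called 0 genes higher and 0 lower, at any fold, with 2 residual degrees of freedom. The smallest adjusted p was 0.555, and of 408 genes with an unadjusted p under 0.05, 269 were higher and 139 lower. That fit counts differences between treatments as spread. Under the 3 other scalings, genes called higher after IL-4 numbered 1689 to 1747 and genes called lower 1443 to 1515, against 1822 and 1386. All 1386 genes called lower remained so under each of these scalings. Of 1822 genes called higher, 207 were so at a fold of at least 2 and 125 in edgeR's exact test with an assumed variation. Of 1386 called lower, 54 were so at a fold of at least 2 and 35 in that edgeR test, while the fold alone gave 1770 on counts and 2080 on deposited TPM. Higher genes made up 56.8% of calls, 79.3% at a fold of at least 2 and 78.1% in the edgeR test. In that edgeR test calls on lists fell as well, for genes called higher from 53 to 8 (interferon response), 18 to 7 (cytokines), 15 to 9 (chemokines), 14 to 2 (interferon GTPases), 13 to 1 (NF-κB), 15 to 2 (Fc and paired receptors), 13 to 2 (scavenger and lectin receptors), 10 to 5 (chemoattractant receptors), 10 to 2 (coagulation) and 12 to 2 (matrix), and to 0 for cell cycle (from 25), oxidant response and iron (14), MHC class I (9), glycolysis (9), innate receptors (8) and neutrophil markers (7). For genes called lower they fell from 18 to 2 (alternative activation) and 10 to 1 (early response), and to 0 for cytokine receptors (10), lineage factors (9) and MHC class II (8). The 207 genes at least 2-fold higher became 471 with a pseudocount of 0.1 and 114 in the edgeR test. The 54 at least 2-fold lower became 219 with that pseudocount, 27 at a mean of 100 counts, where fewer genes are tested, 25 in the edgeR test and 104 with the fold alone on deposited TPM. On deposited TPM the direction was reversed for Fpr3 (-0.10) and Stab2 (-0.15). The LPS calls, 2119 higher and 1085 lower, became 1678 and 1494 with the median ratio, and the NT calls, 2701 and 3233, became 3115 and 3614 with the fold alone on counts and 1552 and 5491 with the fold alone on deposited TPM, where the median over all genes tested was -0.20. Other than the fewer genes tested, the cause was not tested. List medians that changed sign under another scaling were those of eicosanoids, interferon regulatory factors with STATs and SOCS, early response, oxidative phosphorylation and macrophage markers. On deposited TPM these 5 changed sign too, with those of Zmynd8 partners, ribosomal proteins and stromal markers. With no count minimum the signs of Zmynd8 partners, T and NK cell, stromal (-0.10) and sex-linked genes changed, and at a mean of 100 counts those of stromal (-0.15) and sex-linked genes and of the 6 IL-4 markers. Other medians that moved by over 1.5 times included those of sterols and fatty acids (-0.11) and T and NK cell markers on deposited TPM (-0.62), of coagulation (0.13), B cell (0.11), dendritic (0.08), erythroid (0.13) and osteoclast (-0.03) genes and class II (-0.10) with no minimum, of matrix (0.25) and osteoclast genes (-0.03) at a mean of 100 counts, of scavenger and lectin receptors on deposited TPM (0.05) and with a pseudocount of 0.1 (0.25), of dendritic (0.20), stromal (0.47) and sex-linked (0.31) genes with that pseudocount, and of mast cell, basophil and eosinophil markers with no minimum (0.16), that pseudocount (1.34) and a mean of 100 counts (1.45). Depth limits genes near 10 counts, where only large differences could be called, and no setting replaces replicate libraries.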
